A study of Mus musculus with 24 samples.

Results

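The comparison described here set IL-4 against no IL-4 in bone marrow-derived macrophages of Pparg fl/- LysCre mice, with the PPARγ agonist rosiglitazone (RSG) present on both sides. Its members were the 3 arrays titled for IL-4 and RSG and the 3 titled for control and RSG in this genotype, chosen by their titles, 6 of the 24 arrays of the series. Marrow of 3 mice, numbered 4, 5 and 6, was grown for 10 days in 20 ng/ml M-CSF, on which macrophages depend, together with 1 µM RSG. Each mouse gave 1 culture with 20 ng/ml IL-4 and 1 without it, and RNA of each culture was hybridized to 1 mouse expression array. Another 2 like comparisons served as reference. They were IL-4 against control with vehicle in place of RSG in cells of the same mice, and IL-4 against control with RSG in cells of 3 Pparg+/- LysCre mice, numbered 1, 2 and 3, each with 6 arrays of their own. In Pparg fl/- mice 1 allele of Pparg is null and the other is flanked by loxP sites, and LysCre places Cre recombinase under the lysozyme M locus, which is used in myeloid cells, and deletion depends on its use. All 6 members carried both alleles and LysCre, also the controls, and all received RSG, so nothing in this comparison is free of either.

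IL-4 is the cytokine of alternative macrophage activation. It binds the IL-4 receptor, which signals through JAK kinases to the transcription factor STAT6, and STAT6 switches on genes such as those of arginase 1, resistin-like alpha and chitinase-like lectins. PPARγ, the nuclear receptor that RSG binds, controls genes of lipid uptake and storage and is itself induced by IL-4. The question of this comparison was what IL-4 changes when the agonist is present and the receptor gene is open to deletion.

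All expression values are ratios as deposited, mostly a probe set's signal divided by its own median, so that they compare arrays and not genes. A ratio of 0.01 is the lowest value in the table, called the floor here. Log2 changes are IL-4 over control and carry the standard error (SE) of limma, a linear model for arrays fitted on all 24 arrays. Adjusted p-values are limma's after Benjamini-Hochberg adjustment over 43349 probe sets. To be called, a change needed both an adjusted p under 0.05 and a size of 1.5-fold or more. With 1 array per mouse and treatment, these p-values rest on the spread between arrays within groups, pooled over all groups of the 24 arrays. Limma also draws that spread toward a trend with the mean ratio, so it is not that of the compared mice alone. Arrays of the same mouse counted as independent in this fit. "Rose" and "fell" are used of called genes. Where 1 probe set stands for a gene, 18.1% of the 17737 genes tested were called, 9.65% up and 8.49% down, and counts in gene lists are to be read against these shares. The median gene moved by 0.13 on the log2 scale, against which list medians are to be read.

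Some arrays and 1 gene stood apart. The array of control cells of mouse 6 lay at -76.26 on the first principal component of the 6 arrays, between the other controls at -122 and -115.2 and the IL-4 arrays at 102.9 to 105.5. It correlated with the other controls at r = 0.234 and 0.267, and they with each other at 0.341. Called genes named here that lost the call without it, and list counts that moved by 1.5 times or more, are given with and without it. Lyz2, the lysozyme gene whose locus carries Cre, separated the mice: it had ratios of 16.6 on the control and 20.8 on the IL-4 array of mouse 4, against 0.979 and 0.353 in mouse 5 and 1.15 and 0.343 in mouse 6. All 8 arrays of mouse 4 and of Pparg+/- mouse 2 lay between 16.6 and 21.6, and the 16 others did not pass 1.15. Whether deletion of Pparg differed between these mice was not tested. Without mouse 4, 4947 probe sets were called, against 5778 with it, and 4236 of them were called in both.

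IL-4 changed the expression of a large part of the genes measured. In all, 5778 of 43349 probe sets were called, 13.3%, of which 3166 were up (7.3%) and 2612 down (6.03%). By any of their probe sets 1940 genes rose and 1659 fell. Falls were larger than rises, with a median change of 2.61-fold against 2.07-fold, and 196 probe sets fell and 108 rose at least 16-fold. Of those called, 3088 up and 2525 down had IL-4 arrays that did not overlap the control arrays; over all probe sets 20.6% lay wholly above and 12.6% wholly below. A change of at least 1.5-fold in each of the 3 mice was seen for 65.9% of those called up and 70.8% of those called down.

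Alternative activation genes rose most. Of 31 genes in this list 17 rose and 4 fell, with a median log2 change of 2.41. Retnla, which encodes the secreted protein Fizz1, had the floor value in the 3 controls and ratios of 2.91, 2.92 and 3.1 on the IL-4 arrays of mice 4, 5 and 6. It was thus at least 298-fold higher with IL-4, with an adjusted p of 6.5e-19. Arg1, the arginine-hydrolysing enzyme arginase 1, was also at the floor in all controls and reached 2.95, 2.96 and 2.91, at least 294-fold. The ribonuclease gene Rnase2a behaved likewise, at least 278-fold higher with IL-4. A group wholly at the floor has no spread, which makes the SE and the p-values of these genes too small. Chil3, the chitinase-like lectin Ym1, had control ratios of 0.155, 0.155 and 0.104 and IL-4 ratios of 2.62, 2.71 and 2.8, a 20.0-fold rise (adjusted p = 5.2e-07). In these genes the groups were far apart and the 3 IL-4 arrays close together.

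Other markers rose less than Retnla, Arg1 and Rnase2a, some of them more than Chil3, and others fell or were not called. Mgl2, a lectin of alternatively activated macrophages, rose from 0.017, 0.0182 and 0.016 to 3.28, 3.88 and 3.81. The chemokine gene Ccl24 rose 93.4-fold, Pdcd1lg2, which encodes the inhibitory ligand PD-L2, 60.5-fold, and Cdh1, which encodes E-cadherin, 33.7-fold. The mannose receptor gene Mrc1 had control ratios of 0.969, 0.923 and 0.793 and IL-4 ratios of 1.24, 1.33 and 1.32. Its groups did not overlap, but its 1.45-fold change was short of the threshold (adjusted p = 0.00091); without mouse 4 it passed, at 0.63 on the log2 scale. The members that fell were Stab1, a scavenger receptor (-4.95), F13a1, a coagulation factor subunit (-3.87), Il1rn, the IL-1 receptor antagonist (-1.23), and Matn2, a matrix protein (-1.15). The chemokine gene Ccl17 was not called: its ratios were 0.439, 0.321 and 0.273 in controls and 0.461, 0.317 and 1.52 with IL-4, high on the array of mouse 6 alone.

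**Figure D1:**
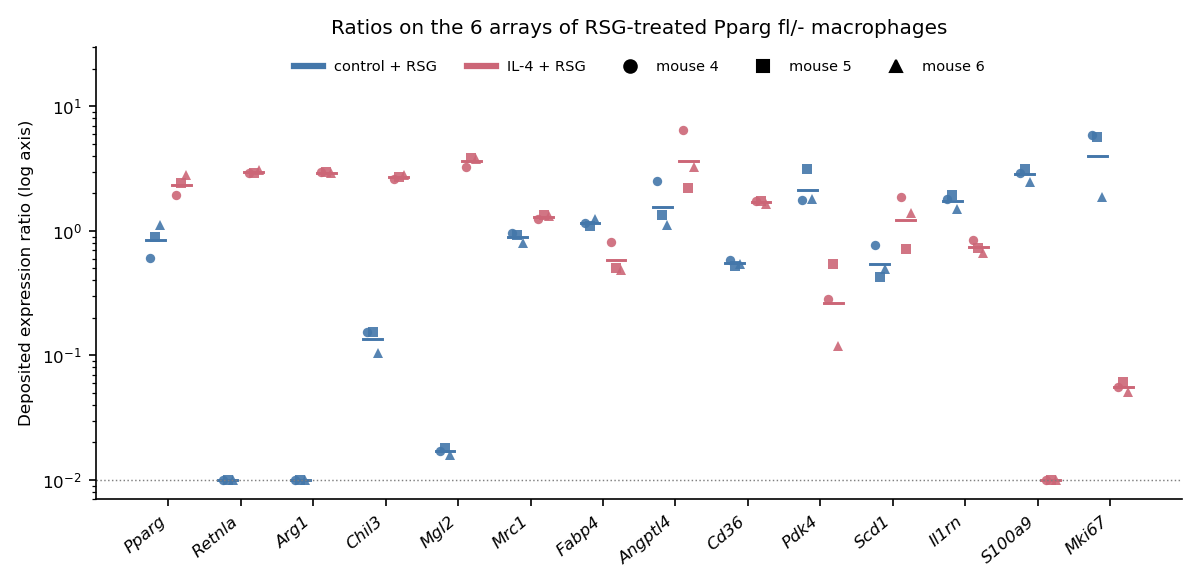
Deposited ratios on a log axis of 14 genes on the 6 arrays of RSG-treated Pparg fl/- macrophages, with controls in blue, IL-4 in red, a symbol for each mouse and a bar at the geometric mean of the 3 arrays. The dotted line is the floor of 0.01, where all control arrays lay for Retnla and Arg1 and all IL-4 arrays for S100a9.

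STAT6 binds palindromes of TTC and GAA separated by any 4 bases, a gap typical of this family member. This motif was searched on both strands in promoters from RefSeq (GRCm38.p6), each 250 bases before and 50 after a start, which the table gave for 14097 of the 17737 genes. It was found in 7.79% of 1361 genes called up, 6.85% of 1197 called down and 6.89% of all 14097, and in 6.95% of all promoters of this length. Of 21 alternative activation genes with a promoter 5 held it, 23.8%, as did 5 of 19 interferon-stimulated genes, 26.3%. With a gap of 3 bases, bound by other STAT proteins, the shares were 8.45% of the genes called up, 8.1% of those called down and 8.59% of all. This 3-base motif was in 4 of the 21 alternative activation genes, 19%, and in 4 of the 19 interferon-stimulated genes, 21.1%. The shares of the genes called up and down thus lay close to those of all genes. A match is a description of the letters and not of binding. The motif with the gap of 4 bases also lies before the start of Il1rn, Lcn2 and Cd5l, which fell and are not shown. The match, in capitals, is shown in stretches before the start of 4 genes that rose and have known roles in macrophages, and of Ccl17, which holds a match and was not called.
Retnla, chr16:48842439-48842498, plus strand, match from 145 bases before the start: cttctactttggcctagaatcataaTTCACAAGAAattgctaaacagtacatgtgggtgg
Pdcd1lg2, chr19:29410812-29410871, plus strand, from 82 bases before: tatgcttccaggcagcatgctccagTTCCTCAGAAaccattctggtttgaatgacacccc
Acp5, chr9:22130674-22130733, minus strand, from 110 bases before: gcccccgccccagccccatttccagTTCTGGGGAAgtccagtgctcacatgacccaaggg
Itgax, chr7:128129398-128129457, plus strand, from 127 bases before: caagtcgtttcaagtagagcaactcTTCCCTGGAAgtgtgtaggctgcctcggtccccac
Ccl17, chr8:94810274-94810333, plus strand, from 154 bases before: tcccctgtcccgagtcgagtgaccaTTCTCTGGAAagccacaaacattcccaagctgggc

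The largest rises outside the classical markers included genes known from other tissues. The 12 genes with the largest rise and no overlap between groups included Il31ra, a cytokine receptor subunit (8.01 ± 0.43), the sodium channel gene Scn3a (7.22 ± 0.69), the germ cell helicase gene Ddx4 (7.17 ± 0.53) and the potassium channel gene Kcnd3 (7.17 ± 0.47). Ppp1r3c, a subunit that directs protein phosphatase 1 to glycogen, rose from 0.0523, 0.0976 and 0.173 to 10.5, 12.0 and 15.6. Gfra2, a receptor for neurturin, the tight junction gene Cldn11 and Tmem26 made up the rest, with log2 changes of 6.81, 6.70 and 6.55. Not all probe sets of these genes were called: 2 of 5 tested rose for Gfra2, 2 of 4 for Kcnd3 and 1 of 2 for Scn3a. Both tested for Il31ra, Ppp1r3c and Tmem26 rose. Il31ra, Scn3a and Gfra2 each had 1 control array at the floor, so that their changes are lower bounds. None of these 12 had a control array above 0.173, and their IL-4 arrays lay at 2.56 or more.

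Pparg itself rose. Its ratios were 0.607, 0.901 and 1.12 in controls of mice 4, 5 and 6 and 1.93, 2.41 and 2.81 with IL-4, a 2.77-fold change (1.47 ± 0.26, adjusted p = 0.00038). Each mouse was higher with IL-4, and mouse 4 was the lowest of both groups. A probe set outside the floxed part would detect a transcript of the deleted allele too, and where this probe set lies in the gene was not determined here.

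The PPAR target genes did not move together. Of 22 tested, 5 rose and 3 fell, with a median of 0.41. Among genes of lipid uptake and storage, Cd36, the fatty acid translocase, rose from 0.586, 0.518 and 0.545 to 1.74, 1.73 and 1.66 (1.64 ± 0.11, adjusted p = 1.3e-08), Hilpda, which encodes a lipid droplet protein, rose 7.37-fold, and Lpl, lipoprotein lipase, 0.64 on the log2 scale. Pltp, the phospholipid transfer protein, rose 8.68-fold. Fabp4, a fatty acid-binding protein and common readout of PPARγ, fell: its control ratios were 1.16, 1.09 and 1.25 and its IL-4 ratios 0.809, 0.503 and 0.483 (a 2.01-fold fall, adjusted p = 0.0039), although without mouse 6 its adjusted p was 0.055. Pdk4, the kinase that inhibits pyruvate dehydrogenase, went from 1.76, 3.12 and 1.81 to 0.282, 0.546 and 0.119 (-3.03 ± 0.81, adjusted p = 0.013; 0.061 without mouse 5 and 0.097 without mouse 6). Me1, malic enzyme, fell 8.47-fold. Of 4 Fabp4 probe sets tested, 2 were called down.

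Angptl4 and Scd1 varied between mice. Angptl4, which encodes an inhibitor of lipoprotein lipase, had control ratios of 2.53, 1.33 and 1.12 and IL-4 ratios of 6.47, 2.23 and 3.29. Every mouse was higher with IL-4, but the groups overlapped through mouse 4 and the change of 1.22 ± 0.49 did not pass (adjusted p = 0.099). With vehicle in cells of the same mice its change was -1.65 (adjusted p = 0.022). The difference between them was 2.87 ± 0.69, with an adjusted p of 1. Scd1, a fatty acid desaturase, had ratios of 0.772, 0.424 and 0.498 in controls and 1.88, 0.72 and 1.39 with IL-4 (1.18 ± 0.36, adjusted p = 0.029). Its groups overlapped, and its adjusted p was 0.095 without mouse 4, 0.19 without mouse 6 and 0.077 without the control array of mouse 6. Only 1 of 2 Scd1 probe sets tested was called.

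Of 23 genes of the IL-4 signal and its feedback 6 rose, 3 fell and the others were not called. Il4ra, the receptor chain, and Stat6 were not called, with log2 changes of -0.17 and 0.20, and Stat6 ratios lay between 0.992 and 1.25 on all 6 arrays. Il13ra1 fell by 1.29 on the log2 scale. Of the feedback inhibitors, Cish, Socs2 and Socs1 rose: Cish from 0.145, 0.216 and 0.235 to 3.17, 3.75 and 3.99, Socs2 19.8-fold and Socs1 23.5-fold. Socs3, an inhibitor linked to other cytokines, fell 3.7-fold, with 1 of its 3 tested probe sets called. Among transcription factors of macrophage activation 13 of 25 rose and 2 fell, or 12 and 1 without the control array of mouse 6. Irf4 rose 11.8-fold, Nfil3 9.18-fold and Klf4 8.33-fold, and Maf, a factor of resident macrophages, fell 8.24-fold with all IL-4 arrays at or under 0.289 and all controls at or above 1.71. Of 20 immediate early genes 12 rose and 1, Egr3, fell. Nr4a1 (5.42-fold), Egr2 (5.32-fold) and Fosl2 (4.2-fold) rose most.

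The cell cycle lists fell almost as a whole. In the mitosis and spindle list all 29 genes fell, with a median of -4.63, and of 29 genes of DNA replication and nucleotide synthesis 26 fell and none rose, with a median of -1.87. Mki67, the marker of proliferating cells, had ratios of 5.89, 5.71 and 1.87 in controls and 0.0559, 0.0614 and 0.0505 with IL-4 (-6.16 ± 0.65, adjusted p = 2.1e-06). Bub1, a spindle checkpoint kinase, went from 8.75, 7.65 and 1.84 to 0.01, 0.058 and 0.0337. The IL-4 array of mouse 4 was at the floor for Bub1. In both genes the array of control cells of mouse 6 was far below the other controls and far above all IL-4 arrays. The same order was seen over the lists. The median ratio of the mitosis genes was 5.23, 5.11 and 1.76 on the control arrays of mice 4, 5 and 6 and 0.158, 0.162 and 0.152 on the IL-4 arrays. With vehicle, control cells of mouse 6 stood at 3.2, again below mice 4 and 5 at 5.24 and 4.61. Controls of Pparg+/- mice with RSG lay between 2.76 and 4.07. Without the control array of mouse 6 the same numbers of genes fell, 29 and 26, and the medians were -5.07 and -2.37. The lowest ratio of a mitosis gene on that control array, 1.09, was above the highest on any IL-4 array, 0.787.

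Further genes of division were among the largest falls: Esco2, which establishes sister chromatid cohesion (-7.41 ± 1.1, with 1 IL-4 array at the floor), Rad51ap1 of DNA repair (-7.03 ± 0.76), the kinesin gene Kif23 (-6.85 ± 0.83), Birc5, which encodes survivin (-6.53 ± 0.97), the phosphatase gene Cdc25c (-6.31 ± 0.71), the repressor gene E2f7 (-6.39 ± 0.83) and the DNA polymerase gene Pole (-6.14 ± 0.85). Dkk2, an inhibitor of Wnt signalling, fell as far (-6.29 ± 0.85). The G1 regulators were mixed, with 5 of 25 up and 9 down. E2f2 fell 17.5-fold and Ccne2, which encodes cyclin E2, 12.5-fold, and Btg2, an inhibitor of proliferation, rose 2.84-fold. A CHR, the cell cycle homology region TTTGAA, was found on either strand in the promoters of 18 of 24 mitosis genes, 75%, in 15.6% of all 14097 genes and in 17.9% of all promoters. In replication genes it was found in 3 of 25. CCAAT, the box often found near it, was in 70.8% of the mitosis genes, 64% of the replication genes, 41.9% of all genes and 37.4% of all promoters. The box was as common in 2 lists described below that mostly rose, MHC class II (75%) and the amino acid response (66.7%). It was in 48.3% of the genes called down and 40% of those called up. Matches of these 2 motifs can share an end base. Mki67 is shown because its promoter holds the CHR letters at 2 places, in capitals.
Mki67, chr7:135716445-135716504, minus strand, nearer match from 98 bases before the start: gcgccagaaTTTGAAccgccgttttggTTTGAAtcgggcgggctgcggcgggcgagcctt

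**Figure D2:**
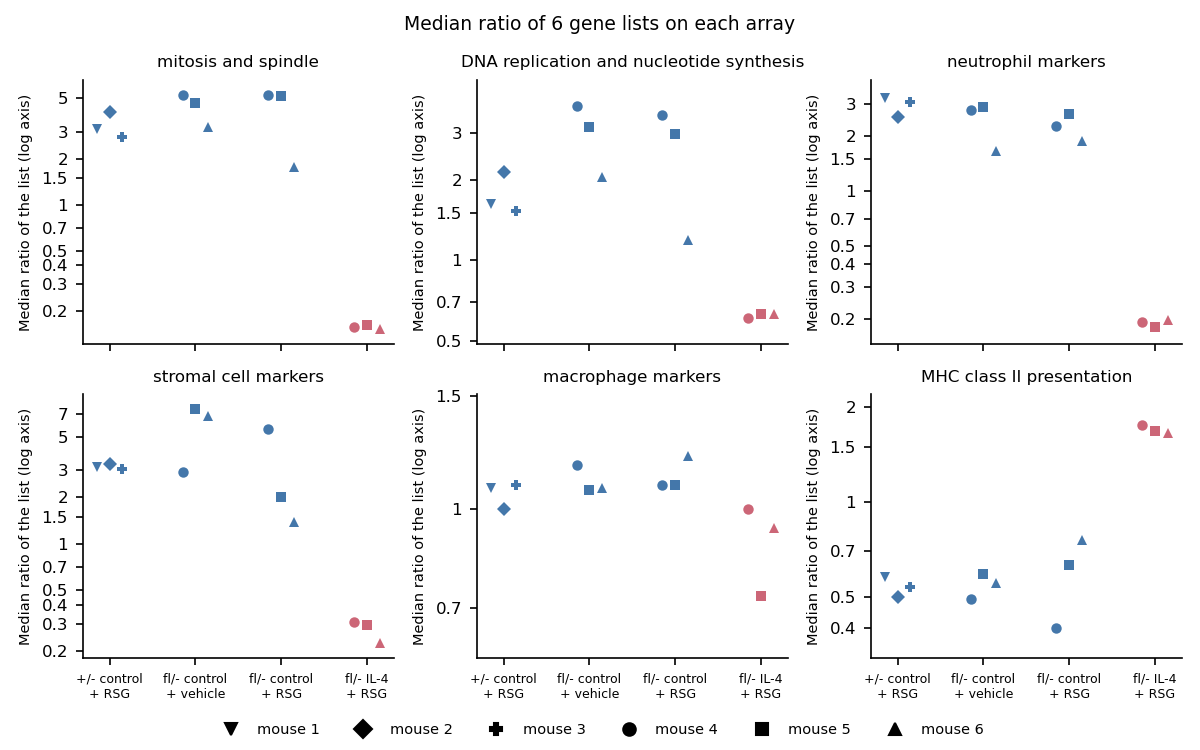
Median ratio, on log axes, of 6 gene lists on each array of control cells of Pparg+/- mice with RSG and of Pparg fl/- mice with vehicle or RSG (blue) and of IL-4-treated Pparg fl/- cells with RSG (red), with a symbol for each mouse. The mitosis and spindle median of control mouse 6 with RSG, 1.76, lies between 5.23 and 5.11 of mice 4 and 5 and the IL-4 arrays at 0.152 to 0.162.

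Markers of other cells moved with these changes. Of 10 neutrophil markers 8 fell, with a median of -3.92. S100a9, a calprotectin subunit, had ratios of 2.94, 3.16 and 2.49 in controls and was at the floor on all IL-4 arrays, at least 285-fold lower. Lcn2, a gene of neutrophil granules, had 2 of 3 IL-4 arrays at the floor and was at least 152-fold lower, and Ngp, another, fell 69.2-fold. The early granule genes Elane and Prtn3 were not called, with log2 changes of -0.02 and -1.02. The summed ratio of the list was 16.2 to 25.3 on control arrays and 2.81 to 3.33 on IL-4 arrays. Of 12 stromal markers 9 fell, with summed ratios of 16.6 to 71.5 in controls, highest in mouse 4, and 3.5 to 4.81 with IL-4. Col1a2, a collagen chain, went from 5.46, 2.54 and 2.05 to 0.0934, 0.0528 and 0.22. With the least variable probe set of each gene in its place, 5 of the stromal genes fell. In bulk samples fewer cells of a type and less RNA per cell cannot be told apart, and the part of such cells in the cell cycle and inflammatory results was not tested. Of 12 macrophage markers 3 fell, Cx3cr1 (-3.89), Fcgr1 (-1.78) and Cd14 (-1.27), Itgam rose (0.77) and the other 8 were not called. Adgre1, Csf1r and Cd68, which define the lineage, had ratios between 0.716 and 1.56 on all 6 arrays. Since ratios carry no level, they do not show how abundant these transcripts were.

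MHC class II genes rose. Of 11 tested 8 rose and 1 fell, with a median of 1.36. H2-Ab1 went from 0.0844, 0.177 and 0.233 to 3.72, 2.83 and 3.13, and Cd74, the invariant chain, from 0.0816, 0.22 and 0.322 to 2.86, 2.57 and 2.94. In both mouse 4 was the lowest of the controls. Ciita, the master regulator of the class, rose by 1.34 (adjusted p = 0.024). H2-Ob, a chain of the peptide-loading inhibitor H2-O, fell from 1.84, 3.02 and 2.92 to 0.353, 0.614 and 0.0357 (-3.68 ± 0.72, adjusted p = 0.0011). Of the costimulatory and inhibitory ligands 4 of 15 rose and 5 fell, among them Cd274, which encodes PD-L1 (4.68-fold up), and Tnfsf14 (24.4-fold down).

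Of the inflammatory genes that were called, more fell than rose. Of 26 cytokines and mediators 10 fell and 3 rose, or 9 and 1 without the control array of mouse 6. Of 24 chemokine genes 8 fell and 4 rose. The chemokine gene Ccl2 went from 6.49, 6.35 and 2.03 to 0.219, 0.506 and 0.31, and Ccl4 and Ccl3 fell 11.1-fold and 8.44-fold. Tlr2, a receptor for bacterial lipoproteins, fell 11.7-fold, and with it 5 of 18 Toll-like receptor genes and coreceptors fell and 1 rose, or 5 and 2 without the control array of mouse 6. Of 19 chemokine receptor and migration genes 11 fell, led by Ccr2, the receptor of Ccl2 (-4.39 ± 0.56), Cx3cr1, the adhesion gene Icam1 (11.7-fold) and P2ry12 (9.57-fold), and 5 rose. The interferon-stimulated genes had 9 of 25 down and 1, Usp18, up, with 7 down and 1 up without that array. Rtp4 fell from 1.64, 4.18 and 2.78 to 0.167, 0.203 and 0.174, and Oas3, a sensor of double-stranded RNA, 9.6-fold. The core of the interferon response element, GAAA, any 2 bases and GAAA on either strand, was in 12 of the 19 promoters of this list in the table, 63.2%, in 3.64% of all genes and in 3.44% of all promoters. The promoters of Oas3 and of Cxcl10, an interferon-induced chemokine that fell 7.43-fold (adjusted p = 0.035; 0.072 without the control array of mouse 6), are shown with it in capitals.
Oas3, chr5:120777700-120777759, minus strand, match from 75 bases before the start: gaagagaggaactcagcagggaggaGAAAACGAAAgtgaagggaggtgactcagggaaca
Cxcl10, chr5:92349068-92349127, minus strand, from 213 bases before: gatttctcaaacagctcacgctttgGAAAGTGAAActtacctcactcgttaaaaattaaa

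**Figure D3:**
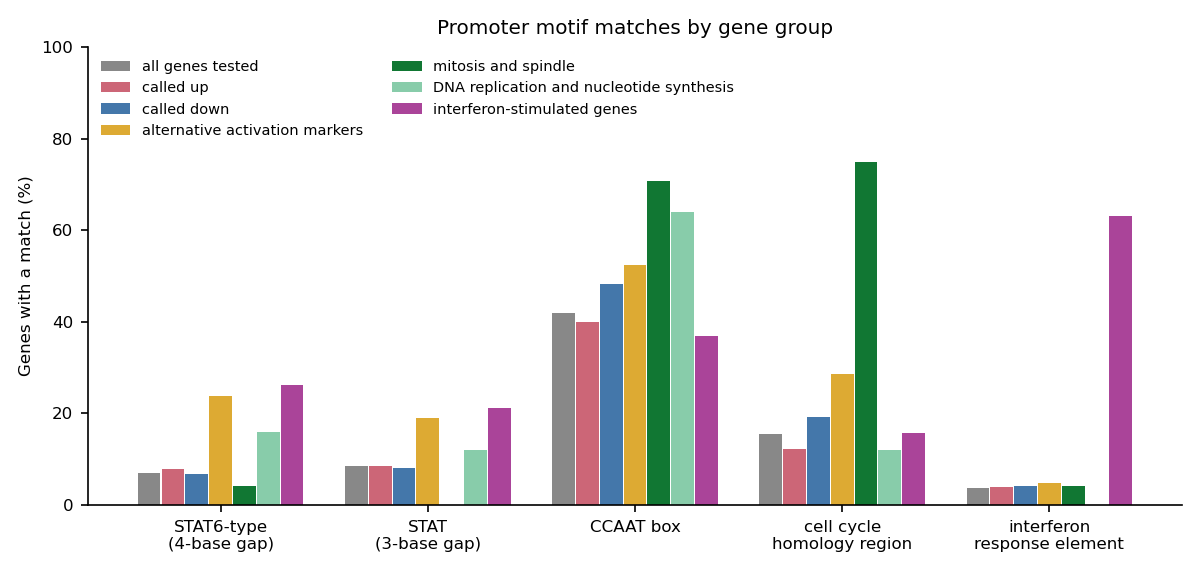
Share of genes, in percent from 0, whose promoter of 300 bases holds each of 5 motifs, for all genes tested, genes called up and down and 4 gene lists. The cell cycle homology region is found in 75% of the mitosis list against 15.6% of all genes, and the interferon response element in 63.2% of the interferon list against 3.64%.

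Metabolic genes moved in several directions. Cholesterol biosynthesis fell: 13 of 20 genes fell and none rose, with a median of -0.89. Idi1, an isomerase of the pathway, went from 3.06, 2.61 and 1.44 to 0.414, 0.336 and 0.315, and Stard4 (6.02-fold), Fdps (4.37-fold) and Cyp51 (3.75-fold) fell too. Of 16 genes of cholesterol efflux 6 rose and 3 fell: Abcg1, a cholesterol exporter, rose 4.2-fold, Ch25h, which makes 25-hydroxycholesterol, 10.3-fold (adjusted p = 0.013; 0.077 without the control array of mouse 6), and Apoe fell 3.8-fold. Of 20 genes of triglyceride storage and lipolysis 6 rose and none fell, among them G0s2, an inhibitor of the lipase ATGL (4.75-fold), and the carboxylesterase gene Ces1d (8.09-fold). Fatty acid oxidation had 3 of 26 up and 1 down, or 2 and 1 without that array, and the respiratory chain 2 of 26 up. In fatty acid synthesis 6 of 21 rose and 4 fell, or 4 and 4 without that array: Scd2 rose 7.84-fold, and Elovl6 and Fads1, enzymes of elongation and desaturation, fell 3.25-fold and 2.77-fold.

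Amino acid genes rose broadly. Of 22 genes of the amino acid response and tRNA synthetases 20 rose and none fell, with a median of 0.98. Without the control array of mouse 6 the count was 15 and the median 0.86. Trib3, a pseudokinase induced by ATF4, had ratios of 0.388, 0.386 and 0.316 in controls and 2.81, 3.29 and 2.53 with IL-4, Psat1, of serine synthesis, rose 5-fold and Chac1, a glutathione-degrading enzyme, 4.03-fold. Of 17 arginine and polyamine genes 5 rose and none fell: the transporter gene Slc7a2 went from 0.0856, 0.11 and 0.102 to 2.77, 3.52 and 3.2, and Slc7a1 rose 2.47-fold. Of 23 ribosome biogenesis genes 9 rose and none fell, all by less than 3.3-fold, and 6 rose without the control array of mouse 6. In iron handling 5 of 16 rose and 2 fell: the exporter gene Slc40a1, ferroportin, fell from 2.34, 2.91 and 3.33 to 0.207, 0.109 and 0.12, and Tfrc, the transferrin receptor, rose 10.1-fold.

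Of the genes of fusion, matrix and coagulation that were called, more rose than fell. Of 20 fusion and osteoclast genes 9 rose and 1 fell. Ocstamp, a membrane protein needed for fusion, rose 36.6-fold, Ctsk, the collagen-degrading protease cathepsin K, went from 0.0832, 0.0696 and 0.0703 to 2.79, 2.07 and 2.45, and Acp5, tartrate-resistant acid phosphatase, rose 17.0-fold. Of 14 matrix metalloproteinases and inhibitors 5 rose and 1 fell. Mmp13, a collagenase, rose 9.86-fold and Mmp2, a gelatinase, fell 9.59-fold. Mmp9, the other gelatinase, had ratios of 0.593, 0.54 and 0.926 in controls and 5.28, 10.1 and 10 with IL-4, yet was not called (3.60 ± 5.29, adjusted p = 0.73). The mean-variance trend of the model widened its SE, and without that trend the change was 3.60 ± 0.27 (adjusted p = 4.6e-08). It is named here after its values were seen, as 1 of 5 probe sets that this step kept from being called. Among coagulation genes 8 of 15 rose and 3 fell: F5 went from 0.0795, 0.212 and 0.348 to 6.61, 17.9 and 14.2, and F10 and F7 rose 22.7-fold and 20.5-fold. Of 16 eicosanoid genes 6 rose and 3 fell, among them Hpgd and Hpgds, which degrade and make prostaglandins and fell 12.6-fold and 8.33-fold. Of 13 IL-1 family genes 4 rose and 2 fell, or 2 and 2 without the control array of mouse 6. Il1r1, the IL-1 receptor, differed by mouse: mouse 4 went from 1.58 to 0.69, mouse 5 from 0.141 to 5.19 and mouse 6 from 0.179 to 5.59 (2.99 ± 0.94, adjusted p = 0.033, and 0.054 with mouse as a replicate block). Without mouse 4 its change was 5.09 (adjusted p = 0.00052), and its adjusted p was 0.38 without mouse 5, 0.31 without mouse 6 and 0.12 without the control array of mouse 6. Only 1 of 2 Il1r1 probe sets tested was called.

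The remaining lists held few called genes or were divided. Axl and Gas6, a receptor and ligand of apoptotic cell uptake, fell 23.9-fold and 7.29-fold, and 3 of the 18 genes of that list rose and 4 fell, or 2 and 4 without the control array of mouse 6. The scavenger receptor gene Olr1 rose 47.5-fold, and of 17 scavenger receptors 3 rose and 3 fell. Of 17 heat shock genes 5 rose, with Hspa1b and Hspa1a 9.76-fold and 6.55-fold up, and Hspb1 fell (adjusted p = 0.031); without that array 7 rose and none fell, and the adjusted p of Hspb1 was 0.052. Both Hspa1 genes are near-identical and may share probes. Of 17 C-type lectin receptors 7 rose and 4 fell, of 10 Fc receptors 2 rose and 2 fell, and of 15 complement genes 3 rose, led by the integrin gene Itgax (6.27-fold), and 6 fell, led by Vsig4 (14.9-fold); without that array 4 rose and 4 fell. Glycolysis had 4 of 22 up and 4 down, glycogen metabolism 2 of 16 up and 4 down (1 and 3 without that array), the NADPH oxidase and antioxidant genes 4 of 20 up and 4 down, and growth factors 5 of 18 up and 7 down. Of 24 nuclear receptors and coregulators 7 rose and 2 fell, or 8 and 1 without that array, and of 23 lysosomal genes 5 rose and 1 fell.

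**Figure D4:**
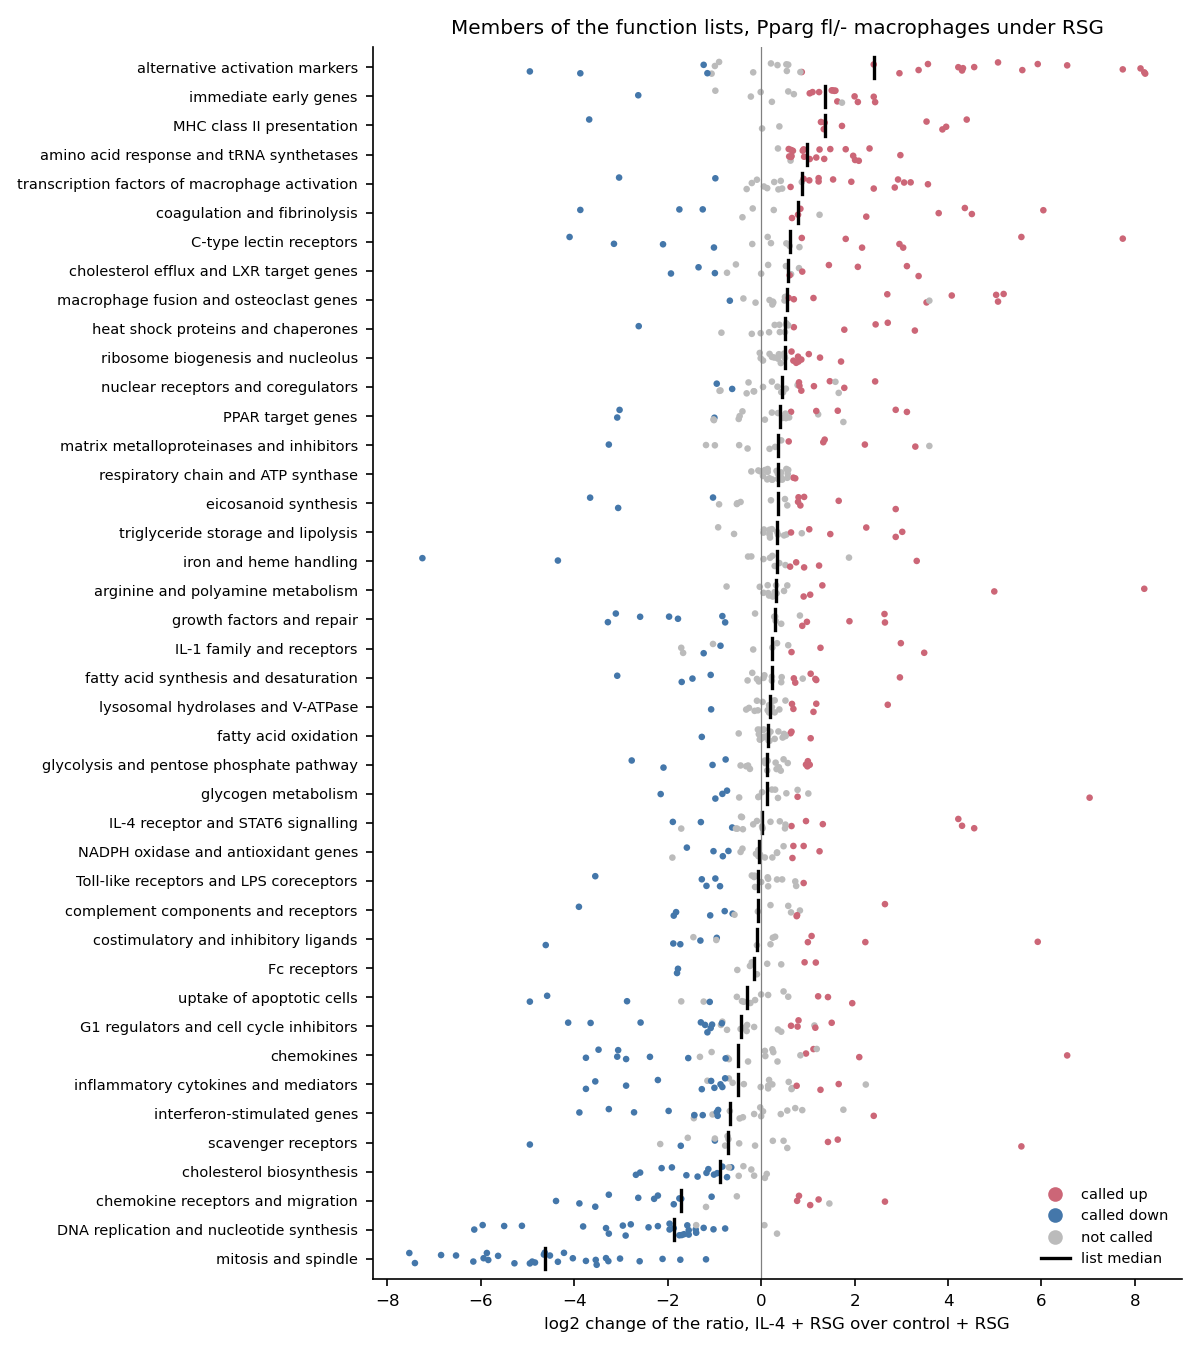
Log2 change with IL-4 of every tested member of 42 function lists in RSG-treated Pparg fl/- macrophages, ordered by list median (black bar), with called rises in red, called falls in blue and other genes in grey. The lists run from alternative activation at a median of 2.41 to mitosis at -4.63.

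The difference from the like comparisons was tested next. With vehicle in cells of the same mice, 6422 probe sets were called (14.8%, with 8.21% up and 6.6% down), or 20.6% of genes, 11.2% up and 9.43% down. Of the 3166 called up with RSG 2311 were called up there, 73% of those with RSG and 64.9% of those with vehicle, and of the 2612 called down 1999, 76.5% and 69.9%. No probe set was called up with RSG and down with vehicle, and 1 the reverse. The 2 comparisons share mice but no arrays. The IL-4 change with RSG was within 2-fold of that with vehicle for 88.6% of the probe sets called with RSG. Of these 5778 probe sets only 3428 changed 2-fold or more. For the others even no change with vehicle would lie within 2-fold, so this share says little about agreement. No probe set passed the test of the difference in limma (0 of 43349, smallest adjusted p = 0.49). An unadjusted p under 0.05 was found for 1768, a smaller share than the 0.05 that tests without any difference give on average. The lowest p-values were those of Fezf2, Prelp, Dnajc11 and Gm26588. Fezf2, a transcription factor gene of neurons, fell with RSG (-2.14) and had a change of 1.97 with vehicle. Dnajc11, a mitochondrial chaperone gene, had changes of -0.25 with RSG and 3.99 with vehicle. None of these differences passed.

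In Pparg+/- cells with RSG 5044 probe sets were called (11.6%, with 6.57% up and 5.07% down), or 16.6% of genes, 8.98% up and 7.63% down. Of those called in Pparg fl/- cells 2016 were called up and 1723 down there too, 63.7% and 66%, or 70.8% and 78.5% of the calls in Pparg+/- cells. Another 2 probe sets were called down in Pparg fl/- and up in Pparg+/- cells, and 0 the reverse. In all 3 comparisons 1796 were called up and 1556 down. The changes in the 2 genotypes were within 2-fold of each other for 86.7% of the probe sets called in Pparg fl/- cells, a share with the same limit as that for vehicle. Pparg rose by 1.47 in Pparg fl/- and 1.1 in Pparg+/- cells, a difference of 0.37 ± 0.36 (adjusted p = 1). Its mean ratio with RSG was higher in Pparg fl/- than in Pparg+/- cells, 0.876 against 0.456 in controls and 2.38 against 0.966 with IL-4. This probe set thus showed no lower signal in the genotype open to deletion, and that difference in level was not tested. Fabp4 differed by -0.52 ± 0.32 and Chil3 by 0.5 ± 0.57, neither past the test. Il1rn fell by 1.23 in Pparg fl/- cells, had a change of 0.18 in Pparg+/- cells, and differed by -1.41 ± 0.26 (adjusted p = 0.31). PPAR target genes had 5 up and 3 down of 22 in Pparg fl/- cells, against 7 up and none down in Pparg+/- cells and 4 up and 6 down with vehicle. The difference between these counts was not tested.

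Of 43349 probe sets 2 were called in the test of the difference between genotypes, both lower in Pparg fl/- cells (0.00461%; for genes, 1 or 0.00564%). The probe set of Gp5, a platelet glycoprotein, had a log2 change of 0.07 in Pparg fl/- cells, with ratios of 0.863, 1.2 and 0.99 in controls and 1.14, 1.01 and 1.04 with IL-4, and of 2.93 in Pparg+/- cells, where controls lay between 0.143 and 0.223 and IL-4 arrays between 1.22 and 1.48. With vehicle, controls of the same Pparg+/- mice lay between 0.685 and 1.15 and their IL-4 arrays between 0.843 and 1.1. Low ratios were thus seen only in the Pparg+/- controls with RSG. The difference between genotypes with RSG was -2.86 ± 0.34 (adjusted p = 0.0045). The other was 1 of 3 probe sets of Dach1, a transcriptional cofactor, with a change of -2.79 in Pparg fl/- and 0.10 in Pparg+/- cells (-2.89 ± 0.42, adjusted p = 0.039). It does not stand for its gene by the rule used here and was named after its values were seen. The other 2 Dach1 probe sets differed by -1.67 ± 1.16 and -0.38 ± 0.57 and were not called. Neither Gp5 nor Dach1 remained called with mouse as a replicate block, where 0 probe sets passed.

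**Figure D5:**
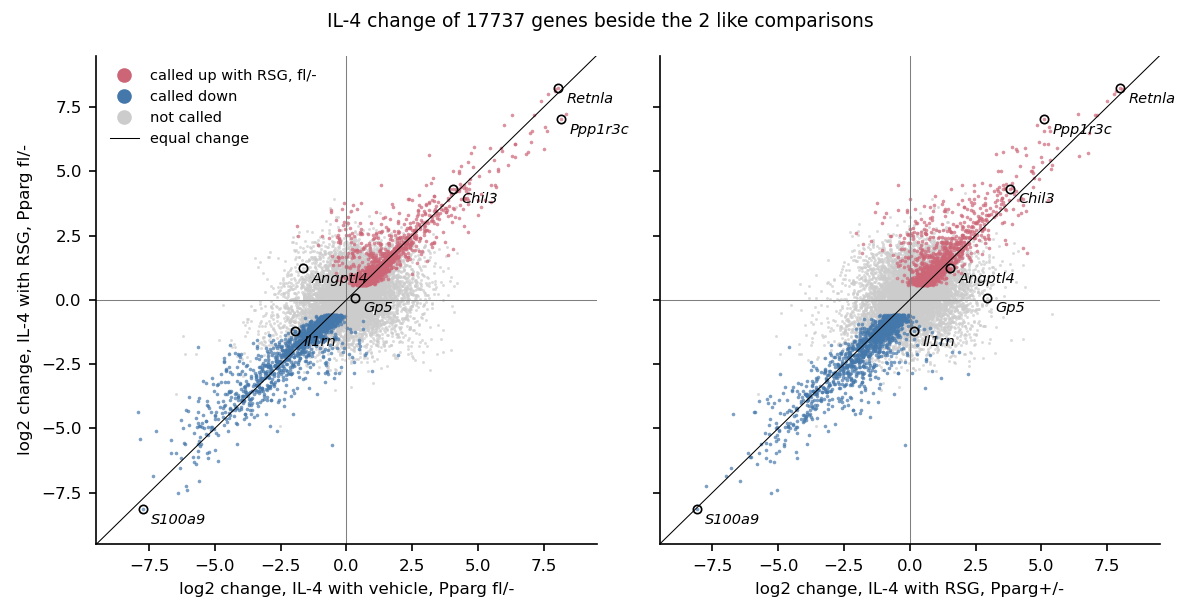
Log2 change with IL-4 of 17737 genes in RSG-treated Pparg fl/- macrophages (vertical axis) against that with vehicle in the same genotype and that with RSG in Pparg+/- macrophages (horizontal axes), coloured by the call on the vertical axis, with the line of equal change. Retnla, Chil3 and S100a9 lie near the line, Angptl4 is at 1.22 with RSG and -1.65 with vehicle, and Gp5 at 0.07 against 2.93 in Pparg+/- cells.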

How the data were processed

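RNA of 24 macrophage cultures was measured on Affymetrix mouse expression arrays. The authors deposited ratios: GC-RMA signals were scaled in GeneSpring 7.3 to the median of the array and then to that of the probe set; the submitters' notes also name GCOS. Of 45101 probe sets, 82.2% had a median ratio within 0.005 of 1 and 17.1% one under 0.95, whose divisor was not determined here. A further division by vehicle controls, named in the methods, was not seen in the values. Of all values 124 were at the floor of 0.01.

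Log2 ratios, unscaled, were fitted in limma 3.58.1 (R 4.3.3) with 1 mean per group over 24 arrays and a mean-variance trend. After removal of 64 control probe sets, those at or above the array median on at least 3 arrays were tested, which removed 1688. For a gene, the probe set with the largest F over the 18 arrays outside the comparison was used. Other probe sets of the same gene were not always called with it. Of 2 probe sets tested, only 1 was called for each of Axl, Tnfsf14, Cx3cr1, Esco2, Ces1d and Fads1, among others. Genes named are Pparg and genes named by the study, the 12 largest rises and falls without overlap, up to 4 called members per list, and those of the difference tests. Other list members named with a value are those needed to describe a list. The members, lists and motifs were chosen with earlier results of these data known. The fit was tested on simulated data. Replicate numbers mark the same mouse and so pair the cultures; deviations of same-mouse arrays correlated at 0.0181, 0.00844 and 0.0044. Alternatives were the methods' t-test, other scalings, filters, floors and leaving out mice. Acsl1 and Spp1 are not analysed here. Precision is limited by the number of arrays.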

Additional observations from a re-analysis of the deposited data

Results flagged for a closer look

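The IL-4 response of Gp5 under RSG differed between genotypes by -2.86 on the log2 scale in the test of the difference itself, with 0.07 in Pparg fl/- and 2.93 in Pparg+/- cells. In Pparg+/- cells, controls with RSG had ratios of 0.143 to 0.223 and controls with vehicle 0.685 to 1.15. The cause of these low controls was not tested. Gp5 gave the difference with the smallest adjusted p. It was 1 of 2 probe sets that passed that test and was not called with mouse as a replicate block, in a fit on the compared groups only, or without mouse 3, 4, 5 or 6.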

How the results depend on the processing

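The 5778 calls became 2582 with the methods' t-test after Benjamini-Hochberg adjustment, or 6619 at an unadjusted p under 0.05 and 1.5-fold or more. They became 3428 at a 2-fold threshold, 3870 in a fit on the compared groups, 5944 with mouse as a replicate block, and 4197 to 5038 when a mouse was left out. With array medians centred 45.7% of calls were up and after quantile normalization 45.8%, against 54.8%. The difference from vehicle had 0 calls, and 0 to 2 when a mouse was left out. The difference from Pparg+/- cells had 2 calls, 1 on the compared groups only, 4 without the mean-variance trend, 0 with the replicate block, and 0 to 2 when a mouse was left out. The trend widened the SE of 30 probe sets more than 2-fold, and 5 of these were called only without it. Values near 0 changed sign: the IL-4 change of Dnajc11 was -0.25, and -0.57 to 0.35 when a mouse was left out and -0.63 without the control array of mouse 6; that of Gp5 was 0.07, -0.01 after quantile normalization and -0.09 to 0.24 when a mouse was left out. The cause was not tested. Leaving out the control array of mouse 6 was chosen after seeing the data and gave 5935 calls, 4948 of them shared. Of 199 genes named, 65 lost the call with the methods' t-test, 30 on the compared groups only, 3 with the replicate block, 16 without the control array of mouse 6, and 15, 26 and 21 without mouse 4, 5 or 6.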

Other observations

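Of 43349 probe sets, 3 were at least 2-fold higher on all 8 arrays of mice 2 and 4 than on any other array, and none was as much lower. All 3 belonged to Lyz2 or its near-identical neighbour Lyz1. In the 4 other mice Lyz2 had ratios of 0.929 to 1.15 on the 8 control arrays and 0.296 to 0.578 on the 8 IL-4 arrays. This pattern was noticed in the data, and its cause was not tested.

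Among markers of other cell types, Gzma, a granzyme of cytotoxic lymphocytes, rose from 0.251, 0.208 and 0.642 to 6.48, 6.54 and 2.45, while the 7 other T and NK cell markers tested, Cd3e among them, were not called. Pecam1, an adhesion molecule of endothelium and leukocytes, rose 10.5-fold, and 3 of 7 endothelial markers rose. Batf3, a transcription factor of dendritic cells, rose 7.61-fold, the only 1 of 9 markers of that type. The other counts here include some that rest on the control array of mouse 6. Of 3 adipocyte and 6 erythroid and megakaryocyte markers none was called. Of 7 B cell markers 1 rose and 1 fell, 2 of 11 genes that mark mast cells or basophils rose and 1 fell, and 1 of 5 eosinophil genes fell. Without that array 0 B cell genes rose and 1 fell, 1 mast cell or basophil gene rose and 0 fell, 0 eosinophil genes fell, 1 erythroid or megakaryocyte gene rose, and 1 endothelial gene fell beside the 3 that rose.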
